A study of Mus musculus with 67 samples.

Results

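Gabra3, Sphkap, Nxph1, Mid1 and Ptchd4 are 5 genes known mainly from neurons or from development, and they were selected on their aorta intensities, far higher in one mouse strain than in another. Every probe set with 1 of these names as its only gene symbol in the platform table was taken, which gave 8 probe sets of 38385 on the array, for 5 of 19147 named genes. Gabra3 was represented by 3 probe sets, Mid1 by 2, and Sphkap, Nxph1 and Ptchd4 by 1 each. Probe sets are named below by the GenBank sequence they target, and the probe set with the highest mean in aorta is taken as a gene's main one. Since the aorta values chose the genes, their aorta differences are given as a description with no test. Heart, kidney and liver of the same strains were not part of that choice and are tested.

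The mice were males of 3 inbred strains bred for their blood pressure, namely the hypertensive BPH/2J (systolic pressure 142 mmHg per the labels), the normotensive BPN/3J (94 mmHg) and the hypotensive BPL/1J (69 mmHg), all 12 weeks old and untreated as far as the labels say. Aorta, from the root down to the level of the left renal artery, was measured on 9 BPH/2J, 5 BPN/3J and 9 BPL/1J arrays. Heart and liver were measured on 5 arrays of each strain, and kidney on 5 BPH/2J, 5 BPN/3J and 4 BPL/1J arrays. The labels state 5 mice per strain and do not tie arrays to animals, so the arrays of a group may include technical repeats, p-values measure no more than their spread, and their number limits the precision. The strains are abbreviated BPH, BPN and BPL below. They differ at many loci besides those of blood pressure, so the pressure of a strain and its other genetic differences cannot be told apart in these groups.

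Gabra3 encodes the alpha3 subunit of the GABA-A receptor, the chloride channel through which the transmitter GABA inhibits neurons. Sphkap encodes an A-kinase anchoring protein, which holds protein kinase A at defined places in the cell and was named for its interaction with sphingosine kinase. Nxph1 encodes neurexophilin 1, a secreted protein that binds alpha-neurexins at synapses. Mid1 encodes a microtubule-associated ubiquitin ligase of the tripartite motif family that directs the turnover of protein phosphatase 2A, and Ptchd4 encodes a membrane protein with a patched domain, reported to dampen Hedgehog signalling. The aortic wall consists mainly of smooth muscle, endothelium and fibroblasts, with nerve fibres in its outer layer and fat around it.

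The promoters of 4 of the genes are shown because they differ in base composition while the genes share a high level in BPH aorta. The 250 bases before a start site were read from the RefSeq promoter table of assembly GRCm38.p6, which is the C57BL/6J reference and not the sequence of the 3 strains studied. Capitals mark matches on either strand to the letters TATAAA of the TATA box, to the GC box motif GGGCGG, to the box named CCAAT, to the cAMP response element core TGACG and to the E-box letters CAGCTG.
Gabra3, chrX:72656920-72657169, minus strand: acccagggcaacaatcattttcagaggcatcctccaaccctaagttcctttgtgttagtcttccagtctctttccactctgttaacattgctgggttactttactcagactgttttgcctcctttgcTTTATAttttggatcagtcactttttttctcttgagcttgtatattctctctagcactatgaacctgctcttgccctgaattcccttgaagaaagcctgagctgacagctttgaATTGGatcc
Sphkap, chr1:83408201-83408450, minus strand: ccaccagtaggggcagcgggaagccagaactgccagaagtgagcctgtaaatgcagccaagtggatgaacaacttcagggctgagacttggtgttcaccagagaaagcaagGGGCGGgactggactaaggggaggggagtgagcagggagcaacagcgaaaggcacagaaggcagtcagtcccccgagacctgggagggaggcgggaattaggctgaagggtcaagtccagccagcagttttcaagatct
Nxph1, chr6:8949769-8950018, plus strand: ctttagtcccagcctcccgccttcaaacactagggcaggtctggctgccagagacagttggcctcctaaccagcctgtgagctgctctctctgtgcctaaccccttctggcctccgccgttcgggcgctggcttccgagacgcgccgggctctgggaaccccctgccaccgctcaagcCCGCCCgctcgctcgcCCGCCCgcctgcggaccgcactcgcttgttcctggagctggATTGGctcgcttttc
Ptchd4, chr17:42316350-42316599, plus strand: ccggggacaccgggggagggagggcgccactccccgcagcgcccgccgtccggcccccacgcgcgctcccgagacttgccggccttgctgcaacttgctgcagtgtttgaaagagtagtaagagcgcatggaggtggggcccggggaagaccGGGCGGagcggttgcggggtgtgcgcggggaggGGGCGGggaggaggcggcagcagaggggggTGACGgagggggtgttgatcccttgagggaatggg
The Gabra3 stretch was 42.4% G or C and held 0 CpG dinucleotides, with TATAAA on the minus strand of the printed run and CCAAT close to the start. The Nxph1 stretch was 66.8% G or C with 20 CpG, the Ptchd4 stretch 72.4% with 24 CpG, and the Sphkap stretch 57.6% with 5 CpG. These 3 held GGGCGG and the Gabra3 stretch did not. Over all 9 listed starts of the 5 genes GGGCGG was in 3, against 32.7% of all 32851 promoters of this length. Over all promoters the median was 52.4% G or C and 6 CpG. TATAAA occurred in 12.4% of them, CCAAT in 33.8%, TGACG in 17.8% and CAGCTG in 13%. The 5 genes have 9 listed starts in all, and those not printed were another start of Gabra3, another of Ptchd4 and 3 of Mid1. The letters TCAGCACC and GGACAG, taken from both ends of the neuron-restrictive silencer element, were in 0 of the 9 stretches against 1.32% and 18.7% of all promoters. The CArG box of smooth muscle genes was in 0 of 9 against 1.47%. A match is a run of letters in a reference genome and no measurement of binding.

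The 5 genes fell into different strain orders in aorta. Gabra3 and Mid1 were high in both BPH and BPL and low in BPN, Nxph1 was highest in BPH and intermediate in BPL, and Sphkap and Ptchd4 were high in BPH alone. In the BPH minus BPN contrast all 8 probe sets had every BPH array above every BPN array. Over the whole array limma called 9.15% of probe sets in that contrast, 10.3% in BPL minus BPN and 11% in BPH minus BPL, at a Benjamini-Hochberg adjusted p below 0.05. No weight can be put on the members' counts against these shares, since the contrast chose them. All values below are log2 intensities, and differences are log2 differences with the standard error of the limma fit. In these bulk samples, a larger number of cells that express a gene and more of its RNA per cell cannot be told apart.

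**Figure D1:**
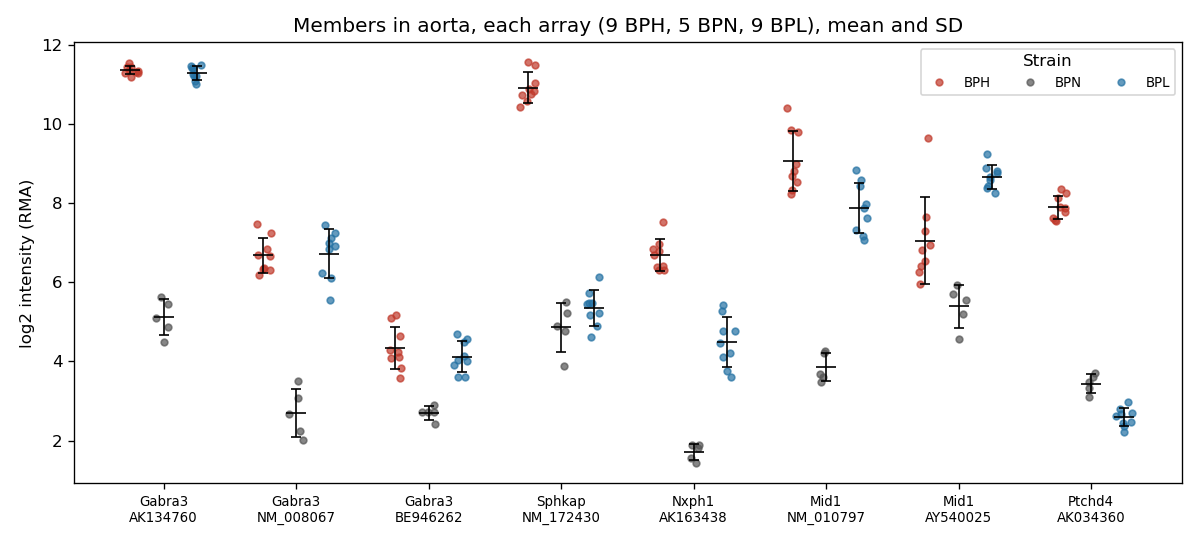
Each point is 1 aorta array, on a y axis of log2 intensity, with the 8 probe sets of the 5 genes along the x axis and the strains in colour. Bars are mean and SD. All BPH points of the 8 probe sets lie above the BPN points, the BPL points of Gabra3 lie beside those of BPH, and the BPL points of Ptchd4 lie below those of BPN.

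Gabra3, the receptor subunit, had the largest difference. Its main probe set, AK134760, stood at 11.19 to 11.54 in the 9 BPH arrays with a median of 11.33. In the 9 BPL arrays it stood at 11.01 to 11.49 with a median of 11.27. The 5 BPN arrays read 5.11, 4.88, 4.49, 5.63 and 5.45. BPH and BPL overlapped along nearly their whole ranges and BPN lay far below both, with no array between 5.63 and 11.01. The difference was 6.23 ± 0.13 for BPH minus BPN, a 75.2-fold ratio, and 6.16 ± 0.13 or 71.7-fold for BPL minus BPN, while BPH minus BPL was 0.07 ± 0.11. In rank, the probe set was at the 97.4 percentile of all probe sets in the median BPH array and at the 54.6 percentile in the median BPN array. The mid-array rank in BPN is not a detection call, which was not used here, so whether the gene was expressed at all in BPN aorta cannot be read from it.

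Both other Gabra3 probe sets kept the order with smaller differences. NM_008067 was at 6.19 to 7.48 in BPH (median 6.67) and at 5.56 to 7.45 in BPL (median 6.92). Its 5 BPN arrays read 3.51, 2.25, 3.09, 2.02 and 2.68. BE946262 was at 3.59 to 5.18 in BPH, at 3.6 to 4.69 in BPL and at 2.42 to 2.89 in BPN. All BPH and BPL arrays lay above all BPN arrays in both probe sets. For BPH minus BPN the difference was 3.97 ± 0.28 and 1.64 ± 0.22, and BPL minus BPN was 4.01 ± 0.28 and 1.42 ± 0.22. The BPN means of both were below the lower quartile of intensity of every aorta array, where values flatten, so no ratio is given. With a pseudocount of 16 the BPH minus BPN difference was 5.68 in AK134760, 2.38 in NM_008067 and 0.71 in BE946262, and for BPL minus BPN it was 5.61, 2.42 and 0.58.

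Sphkap, the kinase anchor, separated BPH from both other strains. The 9 BPH arrays lay between 10.42 and 11.55 with a median of 10.84. The 5 BPN arrays read 5.51, 5.23, 3.89, 4.89 and 4.78, and the 9 BPL arrays lay between 4.61 and 6.14 with a median of 5.46. BPL and BPN overlapped, and no BPN or BPL array came near the BPH range. BPH exceeded BPN by 6.06 ± 0.24 (66.6-fold) and BPL by 5.56 ± 0.20 (47.3-fold), while BPL minus BPN was 0.49 ± 0.24. With a pseudocount of 16 added to the intensities the first difference was 5.41.

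Nxph1, the neurexin ligand, was graded across the strains. BPH lay at 6.3 to 7.52 (median 6.7) and BPL at 3.61 to 5.42 (median 4.46). BPN read 1.88, 1.89, 1.43, 1.82 and 1.57. The 3 ranges did not touch, in the order BPH, BPL, BPN. BPH minus BPN was 4.97 ± 0.25 and BPL minus BPN 2.77 ± 0.25, without a ratio since BPN was at the 0.313 to 4.66 percentile of the array. BPH exceeded BPL by 2.20 ± 0.21, a 4.6-fold ratio. With a pseudocount of 16 these 3 differences of Nxph1 were 2.63, 1.02 and 1.61.

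Ptchd4, the patched-domain gene, was high in BPH only and lowest in BPL. BPH lay at 7.55 to 8.36 with a median of 7.87. BPN read 3.7, 3.32, 3.6, 3.11 and 3.49, and BPL lay at 2.23 to 2.97 with a median of 2.63. The ranges of the 3 strains did not overlap, but the BPL mean was below the lower quartile of intensity, where order carries little. The BPH minus BPN difference was 4.45 ± 0.14 (21.8-fold), BPH minus BPL 5.30 ± 0.12 and BPL minus BPN -0.85 ± 0.14. With a pseudocount of 16 the differences of Ptchd4 were 3.24, 3.52 and -0.29, so their size depends on how low values are treated.

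The 2 probe sets of Mid1, the ubiquitin ligase, did not agree on the order of BPH and BPL. In the main one, NM_010797, BPH lay at 8.24 to 10.4 (median 8.81) and BPL at 7.07 to 8.84 (median 7.88). BPN read 4.27, 4.22, 3.69, 3.49 and 3.62. BPN was separate, and BPH and BPL overlapped with BPH higher by 1.19 ± 0.28. In AY540025, BPL lay at 8.26 to 9.23 (median 8.66) and BPH at 5.96 to 9.63 (median 6.82). Its BPN arrays read 5.19, 4.56, 5.71, 5.55 and 5.94. Here BPL was above BPH, with BPH minus BPL at -1.61 ± 0.33. Of the 9 BPH arrays, 8 lay below every BPL array in AY540025, and replicate 2 lay above all of them at 9.63. The same BPH array was also the highest in NM_010797, at 10.4. BPH minus BPN was 5.21 ± 0.33 (37-fold) in NM_010797 and 1.67 ± 0.39 (3.18-fold) in AY540025, against BPL minus BPN of 4.01 ± 0.33 (16.2-fold) and 3.28 ± 0.39 (9.69-fold). With a pseudocount of 16, NM_010797 stood at 4.17 for BPH minus BPN and 3.03 for BPL minus BPN. A further 2 probe sets name Mid1 among several genes and were not used.

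Since nerve fibres run in the aortic wall, markers of neurons and their supporting cells were compared in the same arrays. Of 12 measured neuron markers, limma called 1 higher and 1 lower in BPH minus BPN, 0 higher and 1 lower in BPL minus BPN, and 2 higher and 2 lower in BPH minus BPL. Their median log2 difference in BPH minus BPN was -0.046 against 0.0026 over all probe sets, and in BPL minus BPN it was 0.028 against 0.0074. The summed intensity of the list was 2480 to 3650 in BPH, 2830 to 3210 in BPN and 968 to 1290 in BPL. Uchl1, a deubiquitinase abundant in neurons, was the 1 marker called in BPL minus BPN and fell in BPL from 10.98 to 7.44 (-3.54 ± 0.13, adjusted p = 3.27e-16). The sum is of linear intensities, and Uchl1 made up most of it in BPN. Most of the lower BPL sum is therefore this 1 gene and not the list, whose median did not fall. Stmn2, a microtubule regulator of growing axons, rose by 0.61 ± 0.18 in BPH against BPN (adjusted p = 0.0329), and leaving out any 1 of 6 arrays ended that call. Gap43, a growth-cone protein, fell by 0.62 ± 0.14 (adjusted p = 0.00437).

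Sympathetic and chromaffin markers summed to 188 to 277 in BPH, 227 to 279 in BPN and 202 to 288 in BPL, and of the 10 measured, Dbh and Pnmt lay below the lower quartile. In BPH minus BPN 2 were higher, Chgb and Hand2, and 2 lower, Ddc and the noradrenaline transporter Slc6a2. The Hand2 call was lost without any 1 of 13 arrays, with quantile normalisation (adjusted p = 0.0551) and with a trended, robust variance prior (adjusted p = 0.0568). Chgb was lost in the joint fit of all tissues (adjusted p = 0.0836), Ddc without BPN replicate 14 and Slc6a2 without BPN replicate 11 or 12. Schwann cell markers summed to 6420 to 7360, 6540 to 7120 and 6290 to 7310. Of 6 measured, 2 were higher in BPH than in BPN, Erbb3 (0.68 ± 0.15, adjusted p = 0.00263) and Cnp (0.64 ± 0.14, adjusted p = 0.00342), and 3 in BPL than in BPN. The third, Mbp, was lost without BPN replicate 13 or 14. The median of this list was 0.35 in BPH minus BPN and 0.55 in BPL minus BPN, against 0.0026 and 0.0074 over all probe sets. The part of these nerve and glial lists in the member values was not tested. The label of a neuronal type therefore describes what the 5 genes are known for and not the rest of the neuron list, which did not rise as a whole.

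The tissue labels were borne out by other lists. The 8 smooth muscle markers had a median rank at the 99.3 percentile in aorta, and heart muscle markers at the 100 percentile in heart, kidney tubule markers in kidney and hepatocyte markers in liver likewise. In aorta, heart muscle markers summed to 5740 in BPH replicate 5 against 152 to 267 in the other 8 BPH arrays, 292 to 437 in BPN and 787 to 1680 in BPL. That array read 8.33 in Mid1 NM_010797, within the range of the rest, but it was the highest of the 9 BPH arrays in Sphkap (11.55) and in Ptchd4 (8.36). Without it, BPH minus BPN in aorta was 6.24 for Gabra3, 5.98 for Sphkap, 5.01 for Nxph1, 5.3 for Mid1 NM_010797 and 4.39 for Ptchd4.

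Outside the aorta, Gabra3 was also lowest in BPN in every tissue, and its log2 differences read smaller there. Aorta RNA was amplified with a cDNA method and the others as cRNA, and intensity scales differ. Neither values nor sizes of differences can therefore be compared between aorta and the rest, and this was not tested. In kidney the main probe set read 5.41, 5.72, 6.14, 5.65 and 5.51 in BPH. It read 4.03, 4.3, 4.77, 4.37 and 4.13 in BPN, and 5.72, 5.15, 5.25 and 5.19 in BPL. All 9 BPH and BPL arrays were above all 5 BPN arrays. The difference of BPH from BPN was 1.37 ± 0.15 (2.58-fold, adjusted p = 1.55e-05 by limma over all probe sets), and BPL minus BPN was 1.01 ± 0.16 (2.01-fold, adjusted p = 0.000695).

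In heart the same probe set read 4.82, 4.64, 4.63, 4.5 and 4.91 in BPH. It read 3.61, 4.26, 3.89, 3.95 and 3.46 in BPN, and 4.73, 4.34, 4.9, 4.43 and 4.94 in BPL. Again BPN did not overlap either strain. BPH minus BPN was 0.87 ± 0.14 (1.83-fold, limma adjusted p = 0.000527) and BPL minus BPN was 0.84 ± 0.14 (1.78-fold, adjusted p = 0.000692).

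In liver it read 3.86, 4.27, 4.52, 4.06 and 4.4 in BPH. It read 3.42, 3.75, 3.47, 3.48 and 3.55 in BPN, and 4.06, 3.9, 4.17, 3.86 and 3.86 in BPL. BPN lay below both other strains here too. For BPH minus BPN the difference was 0.69 ± 0.11 (1.61-fold, limma adjusted p = 0.000355) and BPL minus BPN was 0.44 ± 0.11 (1.35-fold, adjusted p = 0.0165). Leaving out any 1 array kept all 6 of these calls. A joint fit of all 4 tissues lost the liver BPL minus BPN call (adjusted p = 0.0683).

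**Figure D2:**
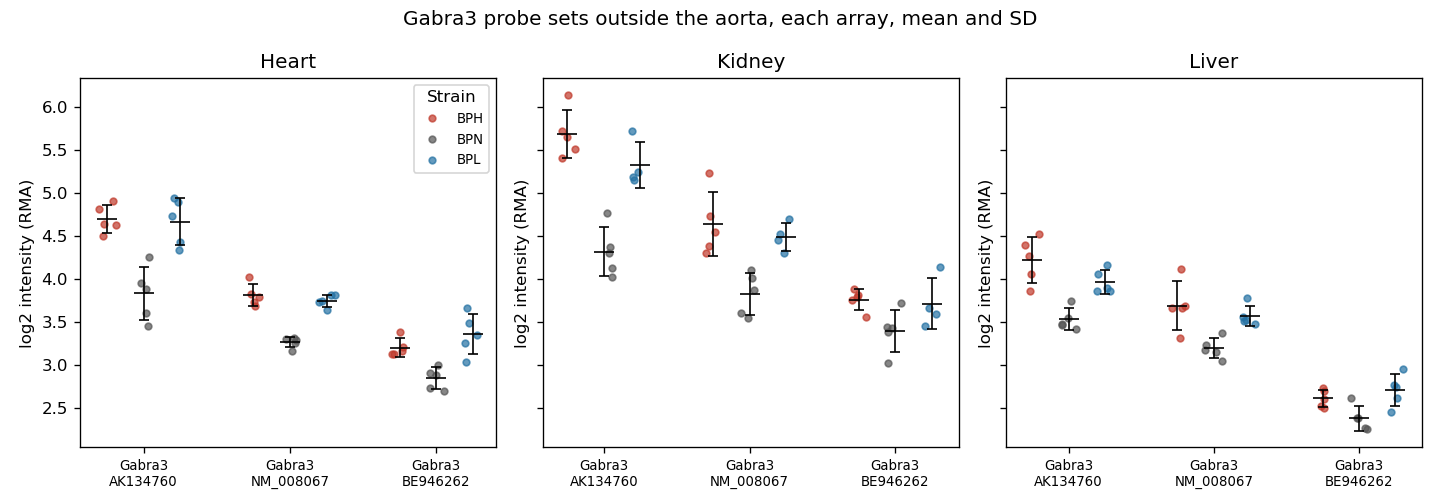
Points are single arrays of heart, kidney and liver on a y axis of log2 intensity, for the 3 Gabra3 probe sets along the x axis, with the strain in colour and bars for mean and SD. In the main probe set, at the left of each panel, the BPN points lie below all BPH and BPL points, for example 4.03 to 4.77 against 5.15 to 6.14 in kidney.

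The weaker Gabra3 probe sets gave the same direction in all 3 tissues, though not every call. NM_008067 was called in each tissue for both contrasts with BPN, with BPH minus BPN of 0.55 ± 0.06 in heart (adjusted p = 1.33e-05), 0.81 ± 0.16 in kidney (adjusted p = 0.00285) and 0.49 ± 0.11 in liver (adjusted p = 0.00777). Its BPL minus BPN was 0.48 ± 0.06 in heart (adjusted p = 5.3e-05), 0.66 ± 0.16 in kidney (adjusted p = 0.0217) and 0.38 ± 0.11 in liver (adjusted p = 0.0441). BE946262, the dimmest, passed in heart at 0.36 ± 0.10 (adjusted p = 0.0321) and 0.51 ± 0.10 (adjusted p = 0.00191) and in liver for BPL minus BPN at 0.33 ± 0.09 (adjusted p = 0.0352). It missed in kidney, at 0.36 ± 0.13 (adjusted p = 0.121) and 0.31 ± 0.14 (adjusted p = 0.225), and in liver BPH minus BPN, at 0.23 ± 0.09 (adjusted p = 0.174). The calls of BE946262 in heart BPH minus BPN and in liver, and of NM_008067 in BPL minus BPN of kidney and liver, each ended when any 1 of 4 to 12 arrays was left out. The joint fit lost every heart and liver call of both probe sets and that of NM_008067 in kidney BPL minus BPN. BPH and BPL were not told apart by any Gabra3 probe set, with the widest difference 0.36 ± 0.16 in kidney (adjusted p = 0.264).

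Mid1 also differed outside the aorta, and its contrasts with BPN passed the test in NM_010797 only. In kidney this probe set read 6.23, 5.85, 6.09, 7.5 and 6.44 in BPH and 3.98, 4.51, 4.26, 4.04 and 3.81 in BPN. The 4 BPL arrays read 3.92, 4.12, 5.72 and 5.5. BPH lay above both strains, and BPL split into 2 arrays among the BPN values and 2 well above them. BPH minus BPN was 2.30 ± 0.34 (4.94-fold, limma adjusted p = 0.000272) and BPH minus BPL was 1.61 ± 0.36 (3.05-fold, adjusted p = 0.0106), while BPL minus BPN was 0.70 ± 0.36 (adjusted p = 0.332).

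In heart Mid1 read 5.18, 5.52, 5.28, 6.98 and 5.26 in BPH, 4.11, 4.33, 4.35, 5.31 and 5.57 in BPL and 3.75 to 3.98 in BPN. All BPH arrays were above all BPN arrays, and BPL overlapped BPH through its 2 highest arrays. The BPH minus BPN difference was 1.8 ± 0.31 (3.49-fold, limma adjusted p = 0.000852), BPL minus BPN 0.90 ± 0.31 (adjusted p = 0.0857) and BPH minus BPL 0.91 ± 0.31 (adjusted p = 0.0841). The call for BPL minus BPN was gained without BPH replicate 4, and that for BPH minus BPL without BPL replicate 5.

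In liver Mid1 read 4.02, 3.89, 4.32, 6.28 and 4.35 in BPH, 3.36 to 4.38 in BPL and 3.47 to 4.29 in BPN. The 3 strains overlapped apart from the 1 BPH array at 6.28, and BPH minus BPN was 0.69 ± 0.34 (adjusted p = 0.293). The probe set AY540025 showed no contrast with BPN past the threshold in these 3 tissues, with BPH minus BPN of -0.08 ± 0.06 in heart, 0.09 ± 0.10 in kidney and 0.02 ± 0.08 in liver. Its only call was BPH minus BPL in heart, at -0.23 ± 0.06 (limma adjusted p = 0.028), lost without any 1 of 5 arrays and in the joint fit (adjusted p = 0.94).

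**Figure D3:**
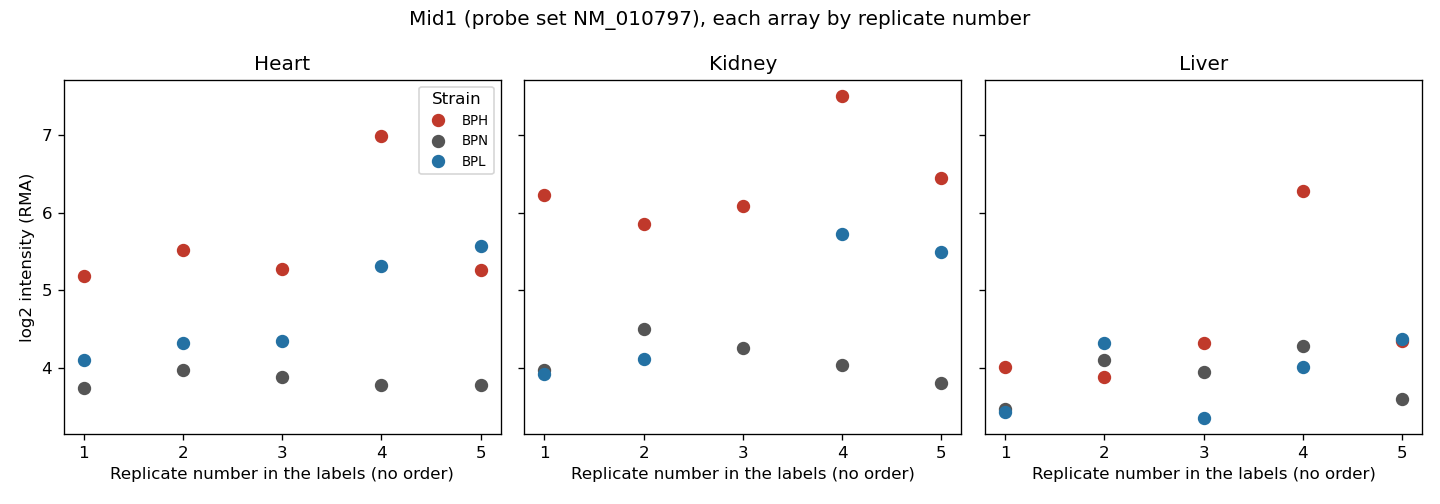
Points are single arrays of heart, kidney and liver, plotted as log2 intensity of Mid1 NM_010797 against the replicate number given in the labels, which has no order. BPH replicate 4 is the highest BPH array in all 3 panels (6.98, 7.5 and 6.28), and BPL replicates 4 and 5 are the highest BPL arrays in heart and kidney.

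The high Mid1 values fell on arrays with the same replicate number in different tissues. BPH replicate 4 exceeded the next BPH array by 1.46 in heart, 1.06 in kidney and 1.93 in liver. Of all 38385 probe sets, this was the only one in which BPH replicate 4 led every other BPH array by more than 1 log2 unit in the 3 tissues, a count chosen after the values were seen. The same count was also 1 for BPN replicate 2, and 0 for the other numbers of the 3 strains. BPL replicates 4 and 5 read 5.31 and 5.57 in heart and 5.72 and 5.5 in kidney, against at most 4.35 and 4.12 in the other BPL arrays. In liver they read 4.01 and 4.38, within the BPL range. The labels do not say that a number marks 1 mouse across tissues. Correlations between tissues were taken over the brighter non-member probe sets, those at or above the median mean, with group means removed. Their mean by strain and tissue pair was 0.00049 to 0.14 for same-numbered arrays and -0.035 to -0.00046 for other-numbered arrays. Removing group means ties the second range to the first with opposite sign, so it is no separate comparison. By strain and tissue pair, 0 to 3 arrays correlated best with the array of their own number. The labels do not tie the aorta array numbers to those of the other tissues.

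Sphkap, Nxph1 and Ptchd4 did not show the BPH excess of the aorta in any other tissue. Sphkap was best measured in heart, where BPH lay at 5.18 to 5.98, BPN at 5.86 to 6.36 and BPL at 4.96 to 6.09. BPH minus BPN was -0.49 ± 0.19 there (limma adjusted p = 0.154) and BPL minus BPN -0.42 ± 0.19 (adjusted p = 0.195), neither past the threshold. In kidney and liver its means were 2.12 to 3.13, below the lower quartile. Nxph1 was below the lower quartile in heart, kidney and liver, and its only call was a lower value in BPL than in BPN kidney at this floor (-0.38 ± 0.08, adjusted p = 0.00468), which the joint fit lost (adjusted p = 0.438). Ptchd4 likewise lay between 1.94 and 3.42 in every array of the 3 tissues, with no call. At this floor a small difference of these last 2 genes was not detectable.

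Counted over the 8 probe sets, BPH minus BPN gave 4 higher and 0 lower for heart, 3 higher and 0 lower for kidney, and 2 higher and 0 lower for liver. Over the whole array the called share was 7.02% for heart, 7.05% for kidney and 7.14% for liver. BPL minus BPN gave 3 higher and 0 lower in heart, where 9.34% of all probe sets were called, 2 higher and 1 lower in kidney with 6.24%, and 3 higher and 0 lower in liver with 7.47%. BPH minus BPL gave 1 lower in heart with 8.57%, 1 higher in kidney with 6.33%, and 0 in liver with 5.77%, where 1 of 8 had an unadjusted limma p under 0.05. Most of these calls belong to Gabra3, whose 3 probe sets measure 1 gene and are not independent. BPH minus BPN and BPL minus BPN share their BPN arrays.

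**Figure D4:**
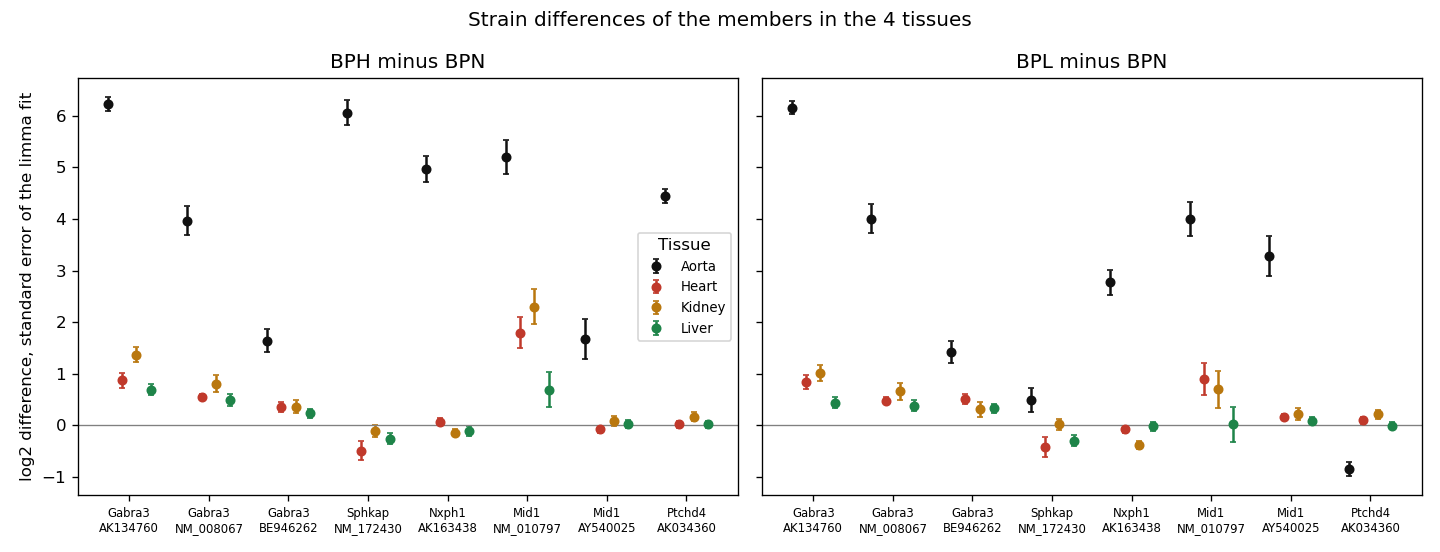
Points are log2 differences between strains (y axis) with the standard error of the limma fit, for the 8 probe sets along the x axis and the 4 tissues in colour, BPH minus BPN at the left and BPL minus BPN at the right. Gabra3 lies above 0 in every tissue and both panels, Mid1 NM_010797 reaches 1.8 in heart and 2.30 in kidney in BPH, and in the BPH minus BPN panel Sphkap, Nxph1 and Ptchd4 are high in aorta only. In the BPL minus BPN panel the aorta points of Sphkap and Ptchd4 lie at 0.49 and -0.85.

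The strain difference itself was compared between heart, kidney and liver by interaction terms. The Gabra3 difference of BPH minus BPN was larger in kidney than in liver by 0.68 ± 0.21 (limma adjusted p = 0.0436), which was lost without any 1 of 12 arrays. It was 1 of 8 probe sets called in that comparison, against 4.82% of all. For Mid1 NM_010797 the same term was 1.62 ± 0.52 (adjusted p = 0.0621), and it passed with a pseudocount of 16 (1.2, adjusted p = 0.0468) or without kidney BPH replicate 2 or liver BPH replicate 4. For BPH minus BPN, 0 of 8 were called between heart and kidney (4.36% of all) and 0 of 8 between heart and liver (5.96%), with 1 of 8 at an unadjusted limma p under 0.05 in each. For BPL minus BPN, 0 of 8 were called between heart and kidney (5.81%), 0 of 8 between heart and liver (7.42%) and 1 between kidney and liver (5.48%). At an unadjusted limma p under 0.05 the first of these held 2 of 8 and the second 0 of 8. The 1 call was Nxph1 at -0.36 ± 0.11 (adjusted p = 0.0471), at the floor of the scale and lost without any 1 of 21 arrays. It was also lost with a pseudocount of 16 (adjusted p = 0.0539) and with median centring (adjusted p = 0.105). With that pseudocount Gabra3 AK134760 passed in heart minus kidney for BPH minus BPN (-0.44, limma adjusted p = 0.0273). In kidney minus liver it passed for BPL minus BPN (0.44, adjusted p = 0.0304).

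Relatives and partners of the 5 genes were compared in aorta, each by its brightest probe set. In both contrasts with BPN more of them fell than rose, and these contrasts share their BPN arrays. Over 6 lists, 83 of 97 listed genes were measured. In BPH minus BPN 3 rose and 7 fell, 12% against 9.15% of all probe sets. In BPL minus BPN 4 rose and 9 fell, or 15.7% against 10.3%. In BPH minus BPL 3 were higher and 5 lower, or 9.64% against 11%. The shares over all probe sets are not a like background, since each listed gene entered by its brightest probe set. With 1 probe set per gene over the array, limma called 2533 of 19147 in BPH minus BPN. It called 2767 in BPL minus BPN and 2772 in BPH minus BPL. No excess of the lists is read from these shares.

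**Figure D5:**
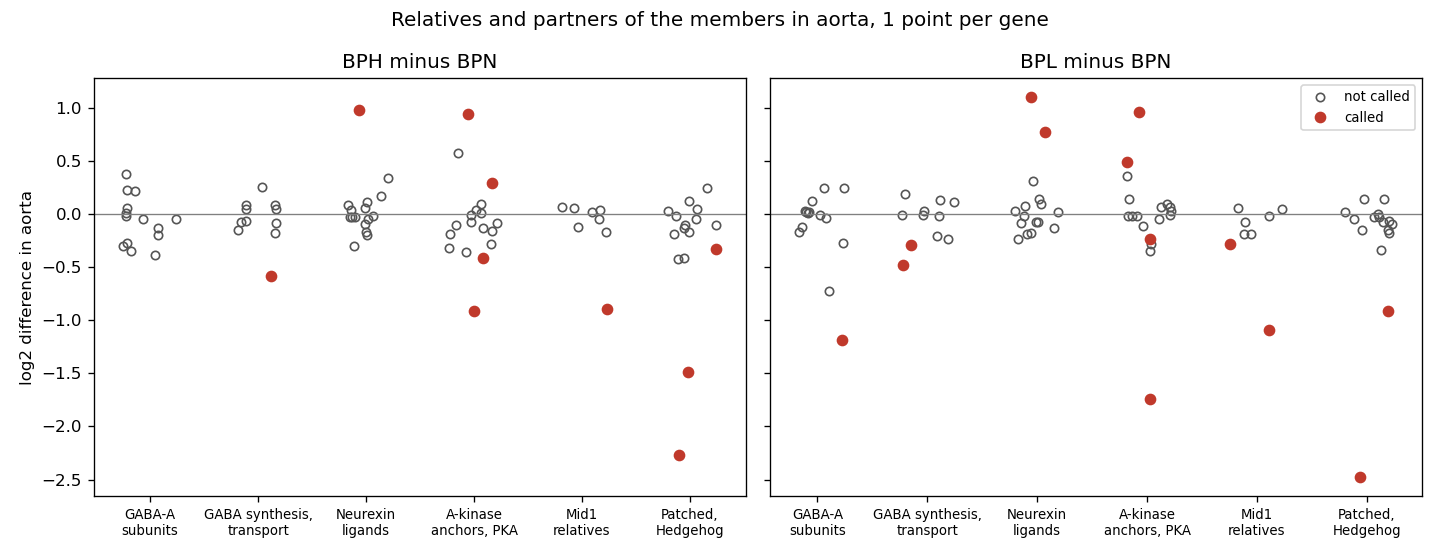
Each point is 1 gene of a list, plotted as its log2 difference in aorta (y axis) by list (x axis), with filled points for genes called by limma. The lists centre on 0, and the points farthest from it are Hhip at -2.27 in BPH and -2.48 in BPL.

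Gabra3 works only as part of a receptor of several subunits, and the other subunits read low. Of 14 measured GABA-A subunits, 0 were called in BPH minus BPN, with 2 at an unadjusted limma p under 0.05. Their median difference was -0.048, and Gabra5, Gabrb2, Gabrg3 and Gabre lay below the lower quartile. Their summed intensity was 133 to 169 in BPH, 124 to 180 in BPN and 124 to 151 in BPL. Gabra4, another alpha subunit, fell in BPL from 4.67 to 3.48 (-1.19 ± 0.24, limma adjusted p = 0.00115) and was higher in BPH than in BPL by 0.82 ± 0.20 (adjusted p = 0.00749). Of 11 measured genes of GABA synthesis, transport and anchoring, Slc6a13, a GABA transporter, fell by 0.58 ± 0.16 in BPH (adjusted p = 0.0158, lost without BPN replicate 15). In BPL, Slc6a13 (-0.48 ± 0.16, adjusted p = 0.0492) and the GABA-degrading enzyme Abat (-0.29 ± 0.09, adjusted p = 0.0402) fell, calls lost without any 1 of 18 and 6 arrays.

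Among A-kinase anchors, protein kinase A subunits and sphingosine kinases, all 18 were measured. Prkar1b, a regulatory subunit of protein kinase A most abundant in brain, rose in BPH against BPN from 4.42 to 5.36 (0.94 ± 0.11, adjusted p = 1.46e-06), and against BPL by 0.87 ± 0.10 (adjusted p = 2.31e-07), the same strain order as Sphkap. Akap5, an anchor at the plasma membrane, fell in BPL by 1.74 ± 0.28 (adjusted p = 7.02e-05) and in BPH by 0.91 ± 0.28 (adjusted p = 0.037, lost without any 1 of 7 arrays). Prkar2b, another regulatory subunit, rose in BPL by 0.96 ± 0.24 (adjusted p = 0.0081). The remaining calls, of Akap7, Akap9 and Akap12, were 0.50 or less in size. In BPH minus BPN the call of Akap7 was lost without any 1 of 16 arrays, with median centring (adjusted p = 0.0604) and in a fit of the 2 strains alone (adjusted p = 0.0638). In BPL minus BPN that of Akap9 was lost without any 1 of 13 arrays, with quantile normalisation (adjusted p = 0.0671) and in the fit of 2 strains (adjusted p = 0.0719).

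Of 16 measured neurexins and neurexin ligands, Clstn3, a synaptic calsyntenin, rose in BPH by 0.98 ± 0.26 (adjusted p = 0.0143) and in BPL by 1.10 ± 0.26 (adjusted p = 0.00505). The BPH call was lost without BPN replicate 13 or 14. Lrrtm3, a postsynaptic neurexin ligand, rose in BPL by 0.77 ± 0.13 (adjusted p = 0.000158). The list's median in BPH minus BPN was -0.024. Of 8 measured relatives and partners of Mid1, Trim36, a tripartite motif ligase of the same subfamily, fell in BPH by 0.89 ± 0.18 (adjusted p = 0.00173) and in BPL by 1.09 ± 0.18 (adjusted p = 0.000151). Mid2, the closest relative, fell by 0.28 ± 0.08 in BPL (adjusted p = 0.0242, lost without BPN replicate 12 or 13).

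The Hedgehog and patched-domain list held the largest changes of the 6. Of 16 measured, 3 fell in BPH and 2 in BPL, and 0 rose in either. Hhip, which binds and restrains Hedgehog ligands, fell from 9.19 in BPN to 6.92 in BPH (-2.27 ± 0.13, limma adjusted p = 1.57e-12) and to 6.71 in BPL (-2.48 ± 0.13, adjusted p = 2.59e-13). Ihh, a Hedgehog ligand, fell from 7.23 to 5.74 in BPH (-1.49 ± 0.21, adjusted p = 1.35e-05) and to 6.32 in BPL (-0.91 ± 0.21, adjusted p = 0.00409). Ptch1, the receptor, fell in BPH by 0.33 ± 0.08 (adjusted p = 0.0107). Hhip and Ihh were low in both strains while Ptchd4 was high in BPH alone. Growing cartilage expresses Ihh, and of 4 cartilage markers measured, 1 rose and 2 fell in BPH and 3 fell in BPL. Their summed intensity was 1080 to 1630 in BPH, 2000 to 2630 in BPN and 785 to 1250 in BPL, and Col2a1 and Matn3 lay below the lower quartile. Comp, a matrix protein of cartilage and tendon, was at -1.5 ± 0.14 in BPH (adjusted p = 3.17e-08) and -1.26 ± 0.14 in BPL (adjusted p = 5e-07). Acan, the large proteoglycan of cartilage, was higher in BPH by 0.41 ± 0.12 (adjusted p = 0.0307, lost without any 1 of 7 arrays) and lower in BPL, at -1.17 ± 0.12 (adjusted p = 1.13e-07). The part of these markers in the Ihh values was not tested.

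Genes next to the members on the chromosome were compared in aorta, up to 3 on each side, 28 in all. In BPH minus BPN 3 rose and 3 fell, in BPL minus BPN 5 rose and 1 fell, and in BPH minus BPL 2 rose and 4 fell. Over all probe sets the called share was 9.15%, 10.3% and 11% in these contrasts, not a like background for neighbours taken at their brightest probe set. Around Gabra3, on the X chromosome, 0 of 6 neighbours were called in any aorta contrast, with 1 unadjusted limma p under 0.05 in BPH minus BPL and 0 in the others. Its nearest neighbours Magea10 and Gabrq differed by 0.16 ± 0.13 and 0.38 ± 0.20 in BPH minus BPN. Beside Nxph1, Ica1 followed the same order as Nxph1 at a smaller size, with BPH over BPN by 0.77 ± 0.11 (adjusted p = 1.07e-05), BPL over BPN by 0.44 ± 0.11 (adjusted p = 0.00627) and BPH over BPL by 0.33 ± 0.09 (adjusted p = 0.0155). Beside Sphkap, Dner, a Notch ligand of neurons, was higher in BPL by 1.63 ± 0.17 (adjusted p = 8.23e-08), and Fbxo36 was higher in BPH by 0.71 ± 0.12 (adjusted p = 0.000223). Beside Ptchd4, Mmut was higher in BPL by 0.72 ± 0.12 (adjusted p = 0.000142) and Cenpq lower by 0.55 ± 0.09 (adjusted p = 9.54e-05).

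Mid1 lies at the end of the X chromosome, where in the house mouse the gene runs across the boundary of the region shared with Y, and its neighbour Erdr1 lies within that region. Erdr1 had its lowest mean in BPH in all 4 tissues, where Mid1 NM_010797 had its highest. The difference of BPH from BPN was -0.80 ± 0.15 in aorta (limma adjusted p = 0.000839), -0.89 ± 0.08 in heart (adjusted p = 4.25e-07), -0.54 ± 0.11 in liver (adjusted p = 0.00279) and -0.23 ± 0.10 in kidney (adjusted p = 0.247). BPH minus BPL was -1.17 ± 0.13, -1.03 ± 0.08, -0.89 ± 0.11 and -0.72 ± 0.11 in the same order of tissues, all called (adjusted p at most 0.000399). The other Mid1 probe set, AY540025, did not mirror Erdr1. Its highest mean was in BPL in all 4 tissues, as was that of Erdr1. These AY540025 means were 8.67 in aorta, 3.76 in heart, 2.83 in liver and 4.23 in kidney. Genes in this region exist in near-identical copies on X and Y. Which part of Mid1 each probe set covers was not determined, so whether it also reads a copy on Y is not known.

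The genes whose aorta pattern was most like each member were found by Pearson correlation over the 23 aorta arrays, which share their strain means. For Gabra3 they were Pdxdc1 (r = 0.993), Tmem87a (r = 0.991) and Vrk1 (r = 0.99). Pdxdc1 stood at 11.02 ± 0.11 (SD, n = 9) in BPH, 6.79 ± 0.18 (SD, n = 5) in BPN and 10.82 ± 0.20 (SD, n = 9) in BPL. For Sphkap they were Thumpd1 (r = 0.988), Spon1 (r = 0.985) and AI506816 (r = 0.983). Thumpd1 stood at 10.45 ± 0.11, 3.52 ± 0.45 and 3.88 ± 0.31 (SD) in the same groups. For Nxph1 they were Mmp3 (r = 0.94), Gbp8 (r = 0.938) and Mttp (r = 0.937). For Mid1 they were Bche (r = 0.959), Pdxdc1 (r = 0.939) and Gbp8 (r = 0.938), and for Ptchd4 Arsk (r = 0.987), Neto1 (r = 0.987) and another Spon1 probe set (r = 0.984). The 5 members were left out of this ranking, so it does not show how alike they are to each other. Spon1, Pdxdc1 and Gbp8 were each shared by 2 members.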

How the data were processed

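Custom 1-colour arrays gave the deposited table of linear intensity values, which the authors had normalised with RMA, as named in the series' design text and, per the submitters' processing notes, as the only tool. Aorta RNA was amplified as cDNA and the other tissues as cRNA, per the labels' protocols, and since intensity quantiles were not equal across tissues, levels are set side by side within 1 tissue at a time. No batch was labelled. The median intensity of an array ran from 25.3 to 26.6 (aorta), 24.6 to 26.3 (heart), 29.8 to 31.5 (kidney) or 13.6 to 14.4 (liver). The log2 was taken with a pseudocount of 0. Strain means were fitted by tissue (lmFit and eBayes of limma 3.58.1, R 4.3.3) over all arrays of the tissue, with Benjamini-Hochberg adjustment over 38385 probe sets and a threshold of 0.05, by a script tested on simulated data. Interactions were fitted on heart, kidney and liver. A ratio is given only where both means reach the lowest of the lower quartiles of the arrays of the tissue. A mean called below the lower quartile lies below that of every array.

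The members and lists were chosen with earlier results of these data known. Named were all members, up to 3 called genes of largest difference per list and contrast, the 3 genes most alike each member in aorta, up to 3 neighbours per side in the RefSeq table of GRCm38.p6, and markers. Other genes are represented by their brightest probe set in the tissue. The array's genome build is not given in the sources used here, and 13842 unlisted and 65 multi-gene probe sets are unnamed. Figures were drawn with matplotlib 3.10.9. Alternatives were quantile normalisation, median centring, a pseudocount of 16, a low-value filter, 1 probe set per gene, 2-strain fits, a joint fit, trend and robust variances, the replicate block and leaving out each array.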

Additional observations from a re-analysis of the deposited data

Results flagged for a closer look

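Of 96 groups of 4 to 9 arrays of the members, 6 held an array whose gap to its nearest neighbour passed Dixon's 95% critical value. Chance alone gives about 1 in 20. For Mid1 NM_010797 these were BPH replicate 4 in heart at 6.98 and in liver at 6.28. For Mid1 AY540025 it was aorta BPH replicate 2 at 9.63. For Gabra3 NM_008067 it was liver BPL replicate 1 at 3.78. Sphkap in kidney BPL replicate 4 (2.77, the lowest) and Ptchd4 in liver BPH replicate 4 (2.23) both lay below the lower quartile of intensity.

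Between tissues, the BPH minus BPN difference of Gabra3 AK134760 was larger in kidney than in liver by 0.68, and the BPL minus BPN difference of Nxph1 was more negative in kidney than in liver, at -0.36, both past the threshold of the interaction test. Other pairs had all arrays of the first strain on one side of the BPN mean in aorta and all on the other side in another tissue, and the difference between the tissues was not tested. They were Sphkap, whose BPH minus BPN was -0.49 in heart, Nxph1, with BPH minus BPN of -0.11 in liver and BPL minus BPN of -0.38 in kidney, and Ptchd4, with BPL minus BPN of 0.21 in kidney.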

How the results depend on the processing

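No value past the threshold changed direction under any alternative, though differences near 0 did, such as Gabra3 NM_008067 in aorta BPH minus BPL (-0.04, and from -0.18 to 0.06 without 1 array). Leaving out 1 array in turn moved no count of called probe sets by over 1.5 times. The joint fit of all 4 tissues, with 1 variance for all, gave 7152, 7431 and 7890 aorta calls for BPH minus BPN, BPL minus BPN and BPH minus BPL, against 3513, 3971 and 4231, and 1530, 1741 and 1832 in heart against 2695, 3586 and 3288. With 1 probe set per gene, and so fewer tested, aorta BPH minus BPL gave 2772 and heart BPH minus BPN 1791. A pseudocount of 16 gave 2553 for the heart minus kidney term of BPH minus BPN, against 1674, and 3419 for BPL minus BPN, against 2232; the cause was not tested. It shrank the aorta differences of all 5 genes, in BPH minus BPN to 5.68 for Gabra3 AK134760, 5.41 for Sphkap, 2.63 for Nxph1, 4.17 for Mid1 NM_010797 and 3.24 for Ptchd4. Outside the aorta it ended the limma calls of Gabra3 BE946262 in heart BPH minus BPN (adjusted p = 0.0817) and of Nxph1 in kidney BPL minus BPN (adjusted p = 0.0632). In liver BPL minus BPN it ended those of Gabra3 NM_008067 (adjusted p = 0.0994) and BE946262 (adjusted p = 0.0685). The joint fit lost 11 calls of the members outside the aorta. In heart these were Gabra3 NM_008067 (adjusted p = 0.257 for BPH minus BPN and 0.335 for BPL minus BPN), Gabra3 BE946262 (adjusted p = 0.505 and 0.103) and Mid1 AY540025 in BPH minus BPL (adjusted p = 0.94). In kidney BPL minus BPN they were Gabra3 NM_008067 (adjusted p = 0.122) and Nxph1 (adjusted p = 0.438). In liver they were Gabra3 NM_008067 (adjusted p = 0.278 for BPH minus BPN and 0.537 for BPL minus BPN), and in BPL minus BPN also AK134760 (adjusted p = 0.0683) and BE946262 (adjusted p = 0.465). Of 99 aorta calls of list, marker and neighbouring genes, 25 were lost without some array and 16 under another setting, and 0 reversed. Without 1 array, aorta BPH minus BPN ranged from 6.08 to 6.36 for Gabra3 AK134760, 5.81 to 6.22 for Sphkap, 4.87 to 5.02 for Nxph1, 5.04 to 5.31 for Mid1 NM_010797 and 4.36 to 4.51 for Ptchd4. BPH minus BPL of Mid1 AY540025 ranged from -1.93 to -1.47. The replicate block kept every count within 1.5 times (heart BPH minus BPN 2405), called Mid1 in heart BPH minus BPL (0.91, adjusted p = 0.0494) and lost Gabra3 BE946262 in liver BPL minus BPN (0.33, adjusted p = 0.0559). It also called the kidney minus liver term of Mid1 NM_010797 in BPH minus BPN (1.62, adjusted p = 0.0314) and of Gabra3 AK134760 in BPL minus BPN (0.69, adjusted p = 0.0462). Same-numbered arrays of different strains did not all correlate best with each other, so the labels' numbers were not read as pairs. The signal of dim probe sets lies near the floor and limits what can be seen of Nxph1, Ptchd4 and Sphkap outside the aorta.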

Other observations

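Some neighbours of the members also changed in other tissues, not always as in aorta. Fbxo36, an F-box gene near Sphkap, was higher than in BPN in BPH and BPL aorta but lower in both strains in liver and kidney. The BPL aorta call (0.40 ± 0.12, adjusted p = 0.0369) was lost without any 1 of 10 arrays (adjusted p up to 0.156), with median centring (adjusted p = 0.0564) and in a fit of the 2 strains alone (adjusted p = 0.0666). In heart it was not called, at 0.13 ± 0.09 in BPH (adjusted p = 0.555) and 0.10 ± 0.09 in BPL (adjusted p = 0.589). In liver it fell from 7.17 in BPN to 5.81 in BPH (-1.35 ± 0.15, limma adjusted p = 5.4e-06) and to 5.26 in BPL (-1.91 ± 0.15, adjusted p = 5.05e-08). In kidney it fell from 9.37 to 8.83 (-0.53 ± 0.07, adjusted p = 9.64e-05) and to 8.95 (-0.42 ± 0.08, adjusted p = 0.00196). The difference between aorta and these tissues was not tested. Phf14, a chromatin-binding gene near Nxph1, was higher in BPH heart than in BPN by 0.62 ± 0.09 (adjusted p = 0.000192) and than in BPL by 0.73 ± 0.09 (adjusted p = 2.6e-05). Mmut, the mitochondrial methylmalonyl-CoA mutase next to Ptchd4, was higher in BPL than in BPN in all 4 tissues, by 0.72 ± 0.12 in the aorta. The excess was 0.31 ± 0.05 in the heart, 0.20 ± 0.06 in the kidney and 0.29 ± 0.06 in the liver (adjusted p at most 0.0362).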
